A study of Mus musculus with 6 samples.

Results

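The genes described here are the 8 members of the interferon gamma receptor and JAK-STAT signalling set: the receptor chains Ifngr1 and Ifngr2, the kinases Jak1 and Jak2, the transcription factor Stat3, and the inhibitors Socs1, Socs3 and Ptpn2. They were taken by gene symbol from a table of 54532 genes, and each symbol stood on 1 row. All 8 averaged 1 FPKM or more over the libraries (fragments per kilobase of gene length, scaled to sequencing depth) and so were among the 11287 genes tested; none was lost to the filter on low values. Poly-A RNA was sequenced from MC38 tumours, a mouse colon cancer line, in 3 libraries of a group labelled wild type and 3 of a group labelled as an Npm1 knockout made with CRISPR/Cas9. Both kinds of MC38 cell were inoculated under the skin of wild-type C57BL/6 mice, and leukocytes were taken out with CD45 microbeads. The knockout therefore concerns the inoculated cells and not the host cells that remain in a CD45- suspension. The labels give neither the animals' age nor whether a line is 1 clone, and nothing in them says that each library is a separate mouse. The p-values therefore speak only for the spread among these 6 libraries, which may be technical.

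Interferon gamma is a cytokine of T and NK cells. It binds IFNGR1, and with IFNGR2 the complex brings JAK1 and JAK2 together, and their signal switches on antigen presentation and GTPase genes. JAK1 and JAK2 also serve other receptors: the IL-6 family signals through the shared chain gp130 to STAT3. SOCS1 and SOCS3 are induced by these pathways and inhibit the kinases, SOCS1 chiefly at the interferon gamma receptor and SOCS3 chiefly at gp130, and the phosphatase encoded by Ptpn2 removes phosphate from JAK and STAT proteins. In tumour cells, receptor and kinase loss is known to blunt the response to interferon gamma, and loss of Ptpn2 or Socs1 to heighten it.

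The libraries held 16917778 to 18662688 fragments, and each member was covered by 382 to 8321 fragments in each library. Npm1 itself, the targeted gene, was measured at 234, 169 and 195 FPKM in wild type and at 191, 159 and 128 FPKM in the knockout (log2 difference -0.33, SE 0.20, limma adjusted p = 0.268). Its groups overlapped, so the transcript as deposited does not check the labels. After removal of the length and GC trend described below, its difference was -0.74 (limma adjusted p = 0.041). That call depended on single libraries. With a library left out as well, the difference ran from -0.84 to -0.63 and limma adjusted p from 0.0232 to 0.141. Along principal component 1, which held 54.7% of the variance, replicate 3 of the knockout lay between the wild-type libraries and the other knockout libraries. Epithelial markers were near the floor, their 7 genes summing to 1.57 to 2.75 FPKM over all libraries, so the labelled colon cancer identity is not seen in them. The 9 fibroblast markers summed to 1145 to 1713 FPKM in wild type and 1444 to 1634 FPKM in the knockout. Col3a1 alone averaged 1143 and 1213 FPKM, while Fap was below 1 FPKM in every library. Of 8 tested, Dcn rose and Col1a1 fell. Neither passed with the trend removed (0.91 and -1.18, limma adjusted p = 0.0761 and 0.137). The 5 pericyte and smooth muscle markers summed to 46.0 to 59.7 FPKM in wild type and 29.4 to 34.99 FPKM in the knockout. Nearly all of this was Cspg4 (33.9 and 14.5 FPKM on average) and Acta2 (20.0 and 16.6 FPKM). Rgs5, Des and Myh11, of mixed direction, were below 1 FPKM in every library. Of 2 tested, Cspg4 fell, but it did not pass with the trend removed (-0.30, limma adjusted p = 0.178). The 4 red blood cell markers summed to 1.46 to 22.4 FPKM in wild type and 12.6 to 81.1 FPKM in the knockout, and the 6 endothelial markers to 1.503 to 4.64 and 0.861 to 1.57 FPKM. The 7 leukocyte markers summed to 1.27 to 1.99 FPKM in wild type and 0.729 to 1.55 FPKM in the knockout, and Ptprc, the gene of CD45 itself, was covered by 0 to 4 fragments in a library. Of 8 T and NK cell markers 3, namely Cd3e, Cd4 and Ifng, were at 0 in every library. The part of fibroblasts, pericytes and red blood cells in the results below was not tested, and in such bulk samples fewer cells of a type and less RNA per cell cannot be told apart.

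Socs3 fell in the libraries labelled Npm1 knockout, and the other 7 members did not pass the test. Each difference is the knockout mean less the wild-type mean of log2(FPKM + 1), and a gene was called at an adjusted p under 0.05 in limma, with Benjamini-Hochberg adjustment over all tested genes. That was 1 of 8 members against a background of 14.2% of all tested genes (5.91% higher and 8.3% lower in the knockout). Rescaled to TPM, 961 of the tested genes were called with 26.1% of the calls higher, where 1604 calls with 41.6% higher stood as deposited, and the median of all tested genes moved from 0.02 to -0.08. The groups did not overlap for 2 of 8 members, Socs3 and Ifngr1, against 35.6% of all tested genes, 16.0% higher and 19.6% lower. Both shares lie near or below the background, so the counts set the 8 genes apart from no others. The differences went both ways: Ifngr1, Socs1 and Ptpn2 had higher knockout means and Ifngr2, Jak1, Jak2, Stat3 and Socs3 lower ones, with a median of -0.14 beside 0.02 for all tested genes. At an unadjusted p under 0.05, 5 members stood out against 33.1% of all tested genes. The count moved with the model: 6 of 8 passed in limma when libraries were weighted by their spread, where 48.3% of all tested genes did, and 0 of 8 passed with the replicate number as a block, where 7.28% did.

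**Figure D1:**
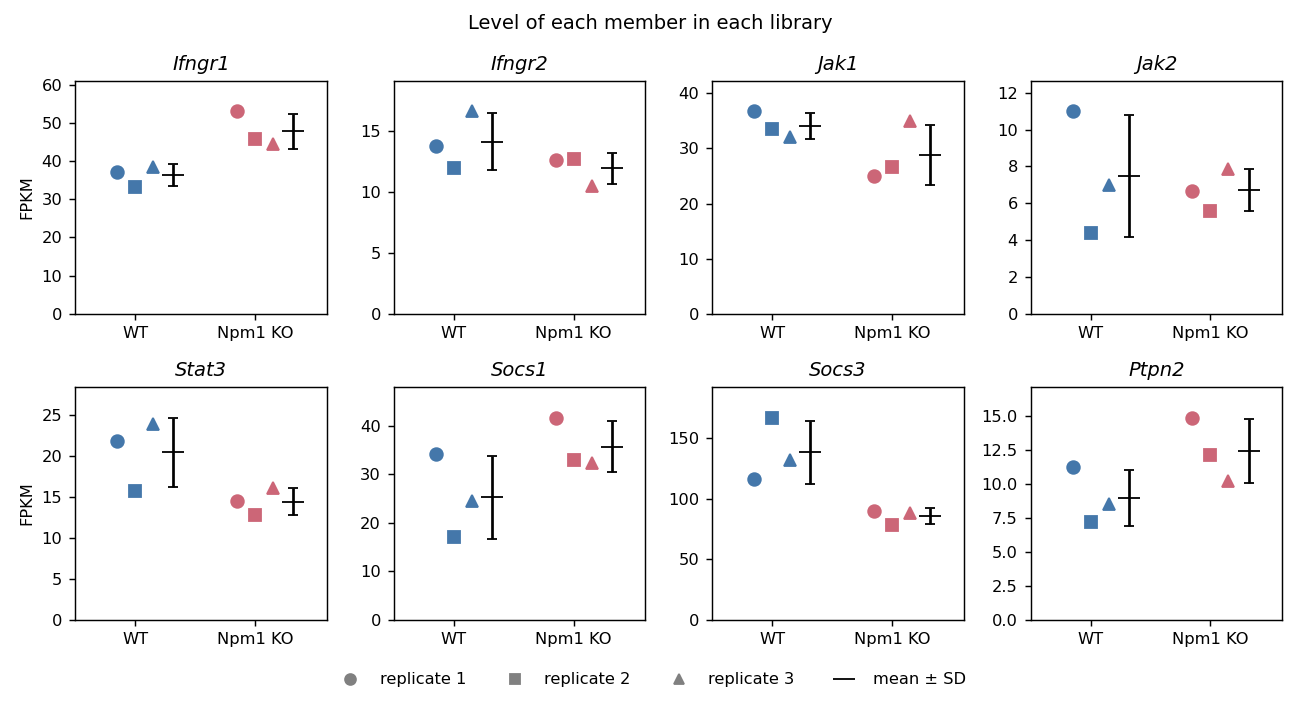
Level of each of the 8 genes in FPKM (vertical axis, from 0, its own scale in each panel) in the 3 wild-type and 3 knockout libraries; symbols mark the replicate number and black bars the mean and SD. All knockout libraries lie below all wild-type libraries for Socs3 and above them for Ifngr1, and the groups overlap in the other 6 panels.

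Levels per length followed nearly the same order in every library. Socs3 was the highest of the 8 and Jak2 the lowest in each of the 6 libraries. In wild type, Socs3 (138 ± 25.9 FPKM, SD, n = 3) stood clear of Ifngr1 (36.3 ± 2.85 FPKM), and the ranges of neighbours in the order then overlapped down to Ifngr2 (14.1 ± 2.34 FPKM), which stood clear of Ptpn2 (9.004 ± 2.06 FPKM). In the knockout the gaps without overlap lay between Socs3 and Ifngr1, Ifngr1 and Socs1, Jak1 and Stat3, and Ifngr2 and Jak2. Socs1 and Jak1 changed places between the groups, as did Ptpn2 and Ifngr2, and neither pair was separated in the knockout libraries. By mean level, Socs3 had a higher mean than 96.0% of tested genes and Jak2 a higher mean than 46.9%.

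The receptor chains had differences of opposite sign, and neither passed the test. Ifngr1 (ENSMUSG00000020009, chromosome 10, 19591949 to 19610229, plus strand, GRCm38), the ligand-binding chain, was measured at 37.2, 33.1 and 38.6 FPKM in wild type and at 53.1, 45.9 and 44.6 FPKM in the knockout. Every knockout library lay above every wild-type library. The log2 difference was 0.39 (SE 0.14, 95% interval 0.07 to 0.71), which did not pass (limma adjusted p = 0.0947). By exact permutation of the 6 values, two-sided, p was 0.1, and 3 libraries against 3 cannot give less. Ifngr2 (ENSMUSG00000022965, chromosome 16, 91547072 to 91565623, plus strand), the chain that brings in JAK2, stood at 13.8, 11.96 and 16.6 FPKM in wild type and at 12.6, 12.7 and 10.5 FPKM in the knockout. Only knockout replicate 3 lay below the wild-type range. Its difference was -0.22 (95% interval -0.57 to 0.14, limma adjusted p = 0.365).

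The ligand was not detected. Ifng had 0 fragments in each of the 6 libraries, a count that allows up to 3 fragments per library and covers counting error only. Leukocytes, its known source, were removed before RNA extraction, so its level in the whole tumour was not measured here.

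Neither kinase of the receptor passed. Jak1 (ENSMUSG00000028530, chromosome 4, 101152367 to 101265282, minus strand) was measured at 36.7, 33.6 and 32.1 FPKM in wild type and at 25.0, 26.6 and 35.1 FPKM in the knockout. Knockout replicates 1 and 2 were below the wild-type range and replicate 3 was inside it, giving a difference of -0.25 (95% interval -0.61 to 0.11, limma adjusted p = 0.308). Jak2 (ENSMUSG00000024789, chromosome 19, 29251828 to 29313080, plus strand) stood at 10.98, 4.40 and 7.0004 FPKM in wild type and at 6.68, 5.58 and 7.85 FPKM in the knockout. All 3 knockout values lay inside the wild-type range, whose spread (SD 3.31 FPKM) was the limit on what could be seen, and the 95% interval of its difference ran from -0.65 to 0.50. The sign of the Jak2 difference turned with the library left out, from -0.36 without wild-type replicate 2 to 0.22 without wild-type replicate 1. Among the kinases outside the receptor, Jak3, which pairs with the common gamma chain and is best known from lymphocytes, stood at 12.3 ± 1.58 and 8.38 ± 1.33 FPKM (-0.51, limma adjusted p = 0.0617). Tyk2, a kinase of the type I interferon and IL-12 receptors, stood at 3.78 ± 0.505 and 2.77 ± 0.457 FPKM (-0.34, limma adjusted p = 0.165). In all, 0 of 4 JAK kinases passed in limma, against 14.2% of all tested genes, and all 4 differences were negative as deposited (median -0.30). At an unadjusted p under 0.05 there was 1 of 4, Jak3, against 33.1% of all tested genes. With a length and GC trend removed (described below) Jak3 was at 0.02 and Tyk2 at 0.16.

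Stat3 (ENSMUSG00000004040, chromosome 11, 100885098 to 100939540, minus strand), the factor of the IL-6 family, was measured at 21.8, 15.7 and 23.9 FPKM in wild type and at 14.5, 12.8 and 16.1 FPKM in the knockout. Knockout replicate 3 lay above wild-type replicate 2, so the groups overlapped, and the difference of -0.46 (95% interval -0.86 to -0.07) did not pass (limma adjusted p = 0.103). Stat5a overlaps it on the opposite strand, and since the strand setting of the counting is not given, their fragments cannot be told apart where they overlap. Stat5a itself averaged 2.36 FPKM against 17.4 FPKM for Stat3.

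Of the other STAT genes reported here, Stat5b had a log2 difference of -0.48, Stat2 of -0.39, Stat5a of -0.35 and Stat6 of -0.11, and none of these 4 passed in limma. They are not the whole family, for which no count or median is given. After removal of the length and GC trend Stat3, Stat5a and Stat6 were at 0.01, 0.06 and 0.14. Stat4 was below the filter.

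Among the inhibitors, Socs3 fell and Socs1 had a positive difference that did not pass. Their promoters are shown because they are the pair of members whose differences lay furthest apart, and because each holds a motif of the factors in this pathway. The sequences are those of RefSeq on GRCm38.p6, from 250 bases before to 50 bases after the annotated start, 5′ to 3′ on the gene's strand. Capitals mark matches to the gamma-activated sequence, TTCNNNGAA, or to the core of the interferon-stimulated response element, GAAANNGAAA, searched on both strands.
Socs3 (chr11:117969317-117969616, minus strand): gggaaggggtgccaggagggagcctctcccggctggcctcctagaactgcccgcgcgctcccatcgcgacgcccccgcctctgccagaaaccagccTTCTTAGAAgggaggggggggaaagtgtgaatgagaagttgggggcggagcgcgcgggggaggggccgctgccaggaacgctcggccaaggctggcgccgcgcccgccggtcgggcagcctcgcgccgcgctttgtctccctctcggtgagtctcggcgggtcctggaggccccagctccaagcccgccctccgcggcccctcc
Socs1 (chr16:10785487-10785786, minus strand): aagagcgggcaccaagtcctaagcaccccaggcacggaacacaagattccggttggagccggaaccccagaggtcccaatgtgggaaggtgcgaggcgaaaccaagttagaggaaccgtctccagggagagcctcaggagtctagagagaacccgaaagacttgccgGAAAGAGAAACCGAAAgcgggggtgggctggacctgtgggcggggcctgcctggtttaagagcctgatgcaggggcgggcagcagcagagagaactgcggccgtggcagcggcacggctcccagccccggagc

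The Socs3 window held 1 gamma-activated sequence, TTCTTAGAA, whose first base lies 154 bases before the start. The Socs1 window held 2 overlapping response element cores, GAAAGAGAAA and GAAACCGAAA, beginning 83 and 77 bases before the start. Of 32851 promoter windows of the same length, 8.30% held the first motif and 3.44% the second. A form with 4 bases between the half-sites, TTCNNNNGAA, is held by 6.95% of windows and was found in Ifngr2 (TTCCCGGGAA, 91 bases before the start). The windows of Ifngr1, Jak1, Jak2 and Stat3 held none of the 3 motifs. A match is a run of letters and not a measured binding site, and the RefSeq start of Socs3 lies inside the gene's span in the deposited table, where other transcripts begin further upstream.

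Socs3 (ENSMUSG00000053113, chromosome 11, 117966079 to 117970047, minus strand) was measured at 116, 167 and 132 FPKM in wild type and at 90.0, 77.9 and 88.3 FPKM in the knockout. The knockout libraries lay close together (85.4 ± 6.56 FPKM) and all below the lowest wild-type library. It fell by 0.68 on the log2 scale (SE 0.17, 95% interval -1.06 to -0.29, limma adjusted p = 0.0334, n = 3 each), to 0.617 of the wild-type mean in FPKM. By exact two-sided permutation of its values p was 0.1, the same as for Ifngr1 and the least that 3 libraries against 3 can give. The difference was lower than that of all but 5.59% of tested genes. The Socs3 log2 difference was negative in every other setting tried, but the call was kept in 2 of the 6 fits that left out a library, where wild-type replicate 1 or knockout replicate 3 was the library left out, and limma adjusted p ran from 0.0284 to 0.135. The call was lost with the replicate number as a block (limma adjusted p = 0.0804) and after removal of the length and GC trend (-0.51, limma adjusted p = 0.0731).

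Socs1 (ENSMUSG00000038037, chromosome 16, 10782240 to 10785536, minus strand) stood at 34.1, 17.1 and 24.6 FPKM in wild type and at 41.7, 33.0 and 32.4 FPKM in the knockout. Wild-type replicate 1 lay inside the knockout range and the other wild-type libraries below it. The difference was 0.53 (SE 0.23, 95% interval 0.02 to 1.03, limma adjusted p = 0.139), and p was 0.3 by exact two-sided permutation of its values. Its size depended on the wild-type libraries: it was 0.76 without replicate 1, where it passed (limma adjusted p = 0.0418), and 0.28 without replicate 2. After removal of the length and GC trend it was 0.77, the largest of the 8 in size, again without passing (limma adjusted p = 0.119).

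Ptpn2 (ENSMUSG00000024539, chromosome 18, 67665511 to 67724595, minus strand) was measured at 11.2, 7.20 and 8.57 FPKM in wild type and at 14.9, 12.1 and 10.3 FPKM in the knockout. Knockout replicates 1 and 2 were above the wild-type range and replicate 3 within it. The difference was 0.43 (95% interval 0.01 to 0.85, limma adjusted p = 0.144) as deposited and 0.01 after removal of the length and GC trend.

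Ratios within a library set related members side by side. Socs3 was 3.41, 9.78 and 5.36 times the FPKM of Socs1 in the wild-type libraries and 2.16, 2.36 and 2.73 times in the knockout libraries, with no overlap. On the log2 scale Socs1 over Socs3 was -2.49 ± 0.76 in wild type and -1.27 ± 0.17 in the knockout (SD, n = 3 each), a difference of 1.23 that was 0.83 without wild-type replicate 2. Ifngr1 was 2.70, 2.77 and 2.33 times the FPKM of Ifngr2 in wild type and 4.21, 3.61 and 4.25 times in the knockout, again without overlap. The log2 ratio went from 1.37 ± 0.14 to 2.004 ± 0.13, a difference of 0.63, and this difference was 0.33 after removal of the length and GC trend. Jak1 over Jak2 was spread widely in wild type, from 3.34 to 7.63 times, and the knockout libraries (3.73 to 4.76 times) lay within that range. These ratios are descriptions and were given no test.

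**Figure D2:**
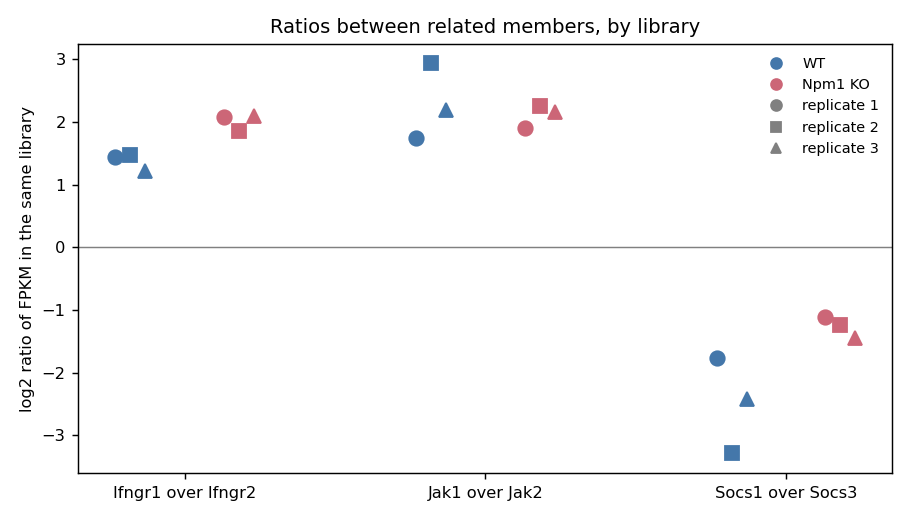
Log2 ratio of FPKM between related members in the same library (vertical axis), for 3 wild-type and 3 knockout libraries each; colour marks the group and symbol the replicate number. The groups are apart for Ifngr1 over Ifngr2 and for Socs1 over Socs3, where wild-type replicate 2 is lowest at -3.29, and overlap for Jak1 over Jak2.

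Some members varied together across libraries. Pearson's r of log2(FPKM + 1) over the 6 libraries was 0.96 between Socs1 and Ptpn2, the highest of 28 pairs, and -0.87 between Ifngr1 and Socs3, the lowest. Each r holds the group difference as well as the spread between replicates, and it is given as a description. Wild-type replicate 2 had the lowest value of all 6 libraries for Ifngr1, Jak2, Socs1 and Ptpn2 and the highest for Socs3. Among 10033 other protein-coding genes, the pair most like each member had r of 0.985 to 0.998. They were Zfp932 and Ghitm for Ifngr1, Thap7 and Tsc22d3 for Ifngr2, Tnks2 and Cnot1 for Jak1, and Mbtd1 and Togaram1 for Jak2. Gramd1a and Spata2 were closest to Stat3, Fam53b and Vps26b to Socs3, and Nmd3 and Nck1 to Ptpn2. Closest to Socs1 were Ifi205, an interferon-inducible gene, and Katnbl1. With 6 libraries such values are common: from 72 genes for Ifngr2 to 490 for Jak1 had an r above 0.9.

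Of 17 tested inhibitors of JAK-STAT signalling 7 fell and 0 rose in limma, Socs3 among them, with a median of -0.33. Of the 14 that are not members, 6 fell against a background of 8.3%. Sh2b3, the adaptor LNK that restrains JAK2, went from 14.3 ± 1.92 to 7.71 ± 0.574 FPKM (-0.81, limma adjusted p = 0.0161). Socs7 fell by 1.05 and Socs5 by 0.84, both SOCS-box proteins. Ptpn11, the phosphatase SHP2, which can act for or against cytokine signals, fell by 0.61. Cbl, a ubiquitin ligase, and Cish, a STAT5-induced SOCS family member, completed the count at -0.82 and -0.65 and were named after their values were seen. Cish passed the filter on low values only through the wild-type libraries (1.95 FPKM on average, against 0.857 FPKM in the knockout), so its fall is not read as support for the count. In the 6 fits that left out a library, Sh2b3, Socs7 and Socs5 each passed in 3, Cish in 2, and Ptpn11 and Cbl each in 1. After removal of the length and GC trend the median was -0.29 and Socs5 (-0.70, limma adjusted p = 0.0474) was the 1 inhibitor that still passed, against 2.98% of all genes so fitted. The other inhibitors that fell, Socs3 (-0.51) aside, shrank by over 1.5 times, Socs7 to -0.47, Cbl to -0.49, Sh2b3 to -0.37, Cish to -0.29 and Ptpn11 to -0.14.

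Other cytokine receptor chains moved both ways. Of 15 tested, 4 rose and 2 fell, against a background of 5.91% and 8.3%, with a median of 0.05. Il2rg, the common gamma chain, stood at 8.12, 9.74 and 8.07 FPKM in wild type and at 19.4, 15.6 and 12.4 FPKM in the knockout (0.79, limma adjusted p = 0.0242). Il15ra (0.61), Il13ra1 (0.54) and the growth hormone receptor Ghr (0.60) also rose. Il4ra, a chain of the IL-4 and IL-13 receptors, fell by 0.65, and Il6st, which encodes gp130, fell by 0.59 from 21.2 ± 2.05 to 13.8 ± 2.96 FPKM. Of the 6 fits that left out a library, Il2rg and Il4ra passed in 3, Il15ra and Il13ra1 in 2, Il6st in 1 and Ghr in 0. With the trend removed none of these 6 chains passed in limma, and Il2rg was at 0.57 (limma adjusted p = 0.0527). Il15ra was then at 0.44, Ghr at 0.35, Il13ra1 at 0.26, Il6st at -0.26 and Il4ra at -0.13. Among 5 tested ligands of the IL-6 family, Lif fell by 1.01 (limma adjusted p = 0.0159) and Il6 rose by 0.93 from a low level of 0.955 ± 0.101 to 2.84 ± 1.22 FPKM (limma adjusted p = 0.0268). Neither passed with the trend removed, where Lif was at -0.75 and Il6 at 0.48. With a library left out, Lif passed in 3 of 6 fits and Il6 in 1. Lif was above 1 FPKM in both groups, and Il6 passed the filter on low values only through the knockout libraries. The leukocyte markers given above were low in both groups, and the T and NK cell markers summed to at most 0.265 FPKM. Il2rg and Jak3, best known from lymphocytes, were well above 1 FPKM. Which cells their RNA came from was not tested.

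The lists of downstream genes lay on opposite sides of 0. Of 34 tested interferon gamma targets 12 rose and 1 fell, against a background of 5.91% and 8.3%, with a median of 0.68. The strongest by p were the T cell chemokine Cxcl9 (1.25), the class II chains H2-Eb1 (1.24) and H2-Aa (1.11), and the GTPase Gbp3 (1.23). Cxcl9 stood at 29.8, 19.8 and 23.3 FPKM in wild type and at 56.7, 69.7 and 50.5 FPKM in the knockout. H2-Aa stood at 138, 81.4 and 125 FPKM in wild type and at 289, 236 and 212.5 FPKM in the knockout. The 9 markers of macrophages and dendritic cells, which carry class II, summed to 4.22 to 12.4 FPKM in wild type and 4.598 to 7.29 FPKM in the knockout. None of 3 tested passed, and Flt3 was at 0 throughout. Lyz2, Cd68, C1qa and C1qb carried the sum, and the markers disagreed. Cd68 averaged 1.36 and 1.71 FPKM. Adgre1 (0.124 and 0.035 FPKM) and Csf1r (0.163 and 0.053 FPKM), both near the floor, were lower in every knockout library than in any wild-type library. The part of these cells was not tested. After removal of the length and GC trend the median of the interferon gamma targets was 0.59. Then 7 targets passed, all of them higher, against 2.98% of all genes so fitted. Not all of these 7 had passed as deposited, and Gbp3 no longer did (1.04, limma adjusted p = 0.0783). As deposited, Cxcl9 passed in 5 of the 6 fits that left out a library, H2-Eb1 in 4, H2-Aa in 3 and Gbp3 in 2. Of 24 tested STAT3 targets 0 rose and 5 fell as deposited, against a background of 5.91% and 8.3%, with a median of -0.14. Of the 22 that are not members 4 fell, with a median of -0.12. Those that fell were Bcl3 (-1.52), Icam1 (-1.39), Socs3, Il4ra and Il6st. Il4ra and Il6st are also counted among the receptor chains above. Icam1 is also the interferon gamma target that fell. It passed the filter on low values only through the wild-type libraries, so its fall is not read as support for either count. With a library left out, Bcl3 passed in 4 of 6 fits and Icam1 in 1. None of the 24 passed in limma with the trend removed, where the median was -0.02 and Bcl3 was at -1.45 (limma adjusted p = 0.0535). Over all lists 29 of 93 tested genes were called, against 14.2% of all tested genes. That number depended on single libraries: leaving out wild-type replicate 3 left 0 calls in limma (34 at an unadjusted p under 0.05), leaving out wild-type replicate 2 left 13, and leaving out knockout replicate 1 or 2 left 1 or 3. Without knockout replicate 3 there were 31. The calls in the whole table moved alike, from 1604 to 7 without wild-type replicate 3 and to 2805 without knockout replicate 3. Over these 6 fits the median of the interferon gamma targets ran from 0.50 to 0.78 and the difference of Cxcl9 from 1.12 to 1.40. The lists were chosen with earlier results of these data known, so their directions are not independent evidence.

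**Figure D3:**
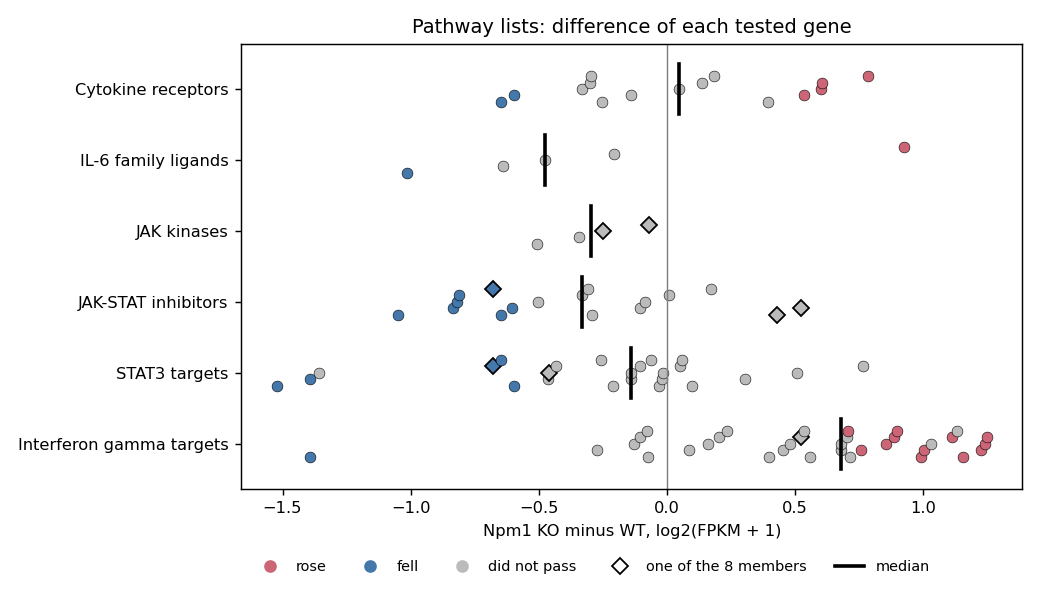
Difference between group means of log2(FPKM + 1), knockout less wild type (horizontal axis), of each tested gene in 6 pathway lists (rows); colour shows whether a gene rose, fell or did not pass, diamonds are members, vertical offsets only separate points, and black lines are medians. The inhibitor list holds 7 falls and no rise, and the interferon gamma target list 12 rises and 1 fall.

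Removal of a trend over transcript length and GC content took the calls from 1604 of 11287 genes to 336 of 11269. How closely the differences over the whole table follow these properties is not given here. The members sit at different places on both. Stat3 has a longest annotated transcript of 6042 bases, longer than that of 88.2% of tested genes. The transcript of Ptpn2 has a lower GC content (39.7%) than all but 4.34% of tested genes, and those of Socs1 (58.8%) and Socs3 (58.7%) lie above 92.8% and 92.4% of them. When a smooth surface over both properties was subtracted from each library, the difference of Stat3 went from -0.46 to 0.01 and that of Ptpn2 from 0.43 to 0.01. Ifngr1 went from 0.39 to 0.22 and Jak1 from -0.25 to -0.09. Socs3 stood at -0.51 and Socs1 at 0.77, and these were the 2 members with an unadjusted p under 0.05, against 26.0% of 11269 genes. None of the 8 passed in limma after adjustment, against 2.98% of genes. Properties were those of the longest annotated transcript, which may differ from the expressed one, and this limits what the corrected value of any 1 gene can show. The subtraction also cannot tell a technical trend from a group difference that runs with either property.

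**Figure D4:**
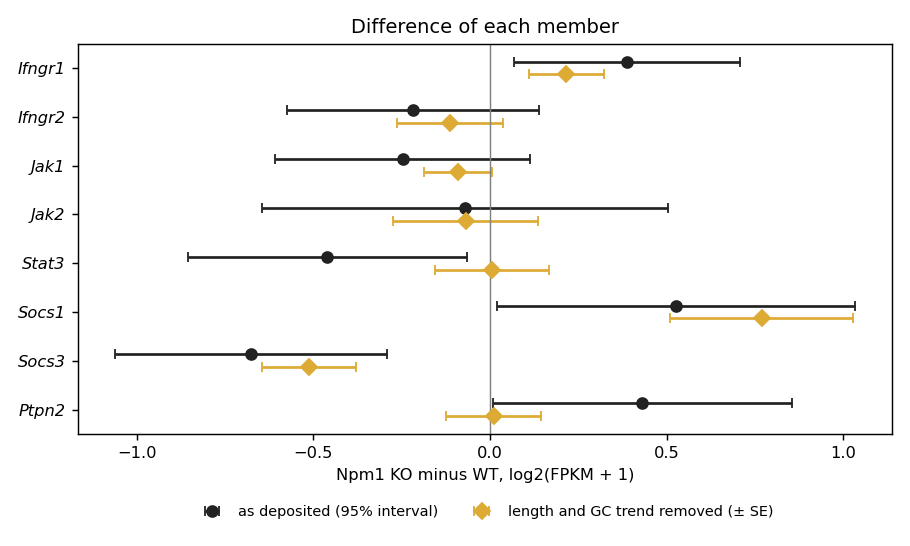
Difference of the 8 genes between group means of log2(FPKM + 1), knockout less wild type (horizontal axis), as deposited with 95% intervals (black circles) and after removal of the length and GC trend with standard errors (yellow diamonds), n = 3 libraries in each group. Stat3 and Ptpn2 come to 0.01 once the trend is removed, and Socs1 and Socs3 keep opposite signs.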

How the data were processed

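Per the file headers, the deposited table gives FPKM in 6 libraries, with gene lengths in bases. GRCm38 (mm10), DESeq2 1.20.0, featureCounts 1.5.0-p3, HISAT2 2.0.5 and CASAVA 1.8 are named in the submitters' processing notes without roles. The sources used here give neither the strand setting nor the treatment of multi-mapping fragments. Multiplied by gene length, the FPKM of each library fell on whole fragments for 100% of values (tolerance 0.001 of a fragment), which gave the fragment numbers. The depth implied by the FPKM scale was 0.960 (wild-type replicate 3) to 1.04 (wild-type replicate 1) times the recovered fragments. The deposited scaling is therefore not to that total alone. Values were tested as log2(FPKM + 1) in limma 3.58.1 (R 4.3.3; group model, mean trend, two-sided) where the mean reached 1 FPKM. Length and GC content came from the longest GENCODE vM21 transcript of each gene on GRCm38, which holds 99.9% of the gene identifiers, and their trend was a smooth surface fitted to each library (mgcv 1.9.3). The fit was also run on simulated counts with the same spread for every gene and library and no length or GC trend. That run therefore cannot show how the fit behaves under such a trend or with an outlying library. Named genes were the members, Npm1, tested JAK and STAT genes, markers of cell types, and up to 4 called genes per list by p. The 2 protein-coding genes most like each member by r were also named. Ghr, Cbl and Cish were named outside this rule. A result under this rule is not reported here. The members and lists were chosen with earlier results of these data known. The alternatives were other pseudocounts, filters, scalings and variance models, limma-voom on the fragments, the replicate number as a block, and each library left out in turn.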

Additional observations from a re-analysis of the deposited data

How the results depend on the processing

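The fit of 11287 genes called 1604 in limma at an adjusted p under 0.05, 29 of 93 list genes and 1 of 8 members. Rescaled to TPM the calls were 961 genes and 17 list genes, and with libraries weighted by their spread 5454, 56 and 6 members. Without a filter on low values they were 0 genes, 0 list genes and 0 members, with 4543 of 24310 genes, 39 list genes and 3 members at an unadjusted p under 0.05. With length and GC content removed they were 336, 8 and 0 members, with 2 members at an unadjusted p under 0.05. With the replicate block they were 822, 17 and 0, and with both 0, 0 and 0, where 2644 genes, 39 list genes and 2 members were at an unadjusted p under 0.05. Deviations of same-numbered libraries from their group means had r = -0.19, 0.27 and -0.37, and those of differently numbered libraries -0.40 to 0.42. With 3 libraries a group these values cannot decide whether the numbers mark pairs or batches, and the labels do not say. Leaving out a library, with or without the surface, gave 4 to 2805 genes, 0 to 31 list genes and 0 to 2 members.

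Under the library weights the differences of Ifngr1 (0.33), Jak1 (-0.29), Stat3 (-0.66), Socs1 (0.53) and Ptpn2 (0.50) passed. Socs3 did not pass without the filter (-0.68, limma adjusted p = 0.108), with the replicate block (-0.68, adjusted p = 0.0804), with the surface (-0.51, adjusted p = 0.0731) or with both (-0.51, adjusted p = 0.143). Leaving out a library gave -0.79 to -0.53 for Socs3, 0.28 to 0.76 for Socs1, -0.63 to -0.34 for Stat3, -0.32 to -0.10 for Ifngr2, -0.36 to 0.22 for Jak2 and 0.30 to 0.59 for Ptpn2. With the surface as well the ranges were -0.59 to -0.39, 0.51 to 1.07, -0.17 to 0.12, -0.24 to 0.0053, -0.31 to 0.12 and -0.0916 to 0.10. With the surface, alone and with the replicate block, the sign turned for Stat3 (0.0065), Jak3 (0.0208), Tyk2 (0.16), Stat5a (0.0623) and Stat6 (0.14). Leaving out a library gave -0.60 to -0.39 for Jak3, -0.43 to -0.25 for Tyk2, -0.67 to -0.13 for Stat2, -0.42 to -0.28 for Stat5a and -0.22 to -0.02 for Stat6. With the surface as well they ran from -0.04 to 0.12, 0.12 to 0.20, -0.41 to 0.17, 0.02 to 0.10 and 0.07 to 0.19. List medians with a library left out ran from -0.41 to -0.20 for JAK kinases, -0.25 to -0.08 for STAT3 targets and -0.05 to 0.19 for receptors, and with the surface as well from -0.05 to 0.0601, -0.19 to 0.0051 and 0.06 to 0.20. The Ifngr1 over Ifngr2 ratio differed by 0.33 with the surface, and Jak1 over Jak2 by -0.46 to 0.14 with a library left out. Causes were not tested. Each member had 382 or more fragments in every library, and 3 libraries a group limit the precision.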
